A study of Mus musculus with 24 samples.

Results

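The mRNAs described here are 7 transcripts of cellular iron handling, those of Fth1, Ftl1, Tfrc, Slc11a2, Slc40a1, Aco1 and Ireb2, which were chosen by gene symbol and make up 7 of the 24079 genes counted. They were measured by stranded sequencing of polyadenylated RNA in 24 mouse libraries, from the nucleus accumbens (Acb, ventral striatum) and the dorsal striatum (DS). In each region, RNA came from whole lysates (Total) and from heavy polysomal fractions of a sucrose gradient (Heavy, mRNAs carrying more than 4 ribosomes by the sample labels), with 3 replicates in each of 8 groups. The 2 genotypes were rpS6P-/- mice (written KI), a knockin in which every phosphorylatable serine of ribosomal protein S6 is replaced by alanine, and their wt littermates. Both were of a mixed C57Bl/6, Sv129 and ICR background and included both sexes, no age is given in the sources used here, and each replicate was a pool of several mice. The knockin is constitutive and present in all cells. The labels name no treatment, and Heavy against Total describes how much of each mRNA was on heavy polysomes, relative to the other mRNAs of the library.

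Cells take up iron bound to transferrin through the transferrin receptor, pass it across membranes through the transporter encoded by Slc11a2, store it in ferritin, and export it through ferroportin, encoded by Slc40a1. The iron regulatory proteins IRP1 (encoded by Aco1, which is the cytosolic aconitase when it holds an iron-sulfur cluster) and IRP2 (encoded by Ireb2) bind a hairpin in mRNAs called the iron-responsive element. Bound in a 5′ UTR, as in ferritin mRNAs, they hold back initiation of translation, and bound in a 3′ UTR, as in Tfrc mRNA, they protect the mRNA from decay. In the striatum, ferritin is known for its high level in oligodendrocytes and microglia as well as its presence in neurons.

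The element is shown for each mRNA in which the search described below found it, since its place in the mRNA is what divides the set. In each line 30 bases are given 5′ to 3′ in the sense of the mRNA, and the capitals mark the unpaired C and the 6-base loop. Coordinates and letters are from GENCODE transcripts on GRCm38, the assembly to which the authors aligned.
Fth1, 5′ UTR, chr19:9982731-9982760, plus strand: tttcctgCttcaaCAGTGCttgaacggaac
Ftl1, 5′ UTR, chr7:45459779-45459808, minus strand: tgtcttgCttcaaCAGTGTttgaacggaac
Slc40a1, 5′ UTR, chr1:45925465-45925494, minus strand: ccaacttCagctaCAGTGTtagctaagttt
Tfrc, 3′ UTR, chr16:32631218-32631247, plus strand: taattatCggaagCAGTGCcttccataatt
Tfrc, 3′ UTR, chr16:32631597-32631626, plus strand: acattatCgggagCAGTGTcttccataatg
Tfrc, 3′ UTR, chr16:32631662-32631691, plus strand: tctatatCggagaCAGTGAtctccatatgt
Tfrc, 3′ UTR, chr16:32631709-32631738, plus strand: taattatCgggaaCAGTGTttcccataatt
Slc11a2, 3′ UTR, chr15:100395153-100395182, minus strand: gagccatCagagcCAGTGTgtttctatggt

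These sites were found by a search of the sense strand of UTRs for the letters CNNNNNCAGTGN in which the 5 bases before the loop pair with the 5 bases after it, G with T included. All 5 pairs were present in the sites of Fth1, Ftl1, Slc40a1 and Tfrc, and 4 of 5 in that of Slc11a2. Of 21511 genes searched, 28 (0.13%) held such a site with all 5 pairs in a 5′ UTR and 126 (0.586%) held one in a 3′ UTR. With 4 pairs or more these shares were 0.818% and 3.98%. No site of this form was found in the UTRs of Aco1 or Ireb2. A match describes these letters and is not evidence of binding. Elements with another loop would be missed, so the sites shown may not be all that these mRNAs hold.

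Library depth ranged from 9280589 to 34703044 reads assigned to genes, with medians of 19862908 in Heavy and 14889586 in Total. Levels are given as normalised CPM, the read counts scaled to a common library size by TMM over all 24 libraries, and levels of different genes are compared only as CPM per kilobase of transcript. Marker genes were used to describe the tissue. All 9 markers of medium spiny neurons, the main striatal neurons, were detected in every library, and so were the 8 oligodendrocyte markers. Detection at this depth does not check the dissection. The summed level of 5 markers of cortical excitatory neurons was 67.0 to 190 CPM in the Total libraries of the Acb and 696 to 908 CPM in those of the DS. Markers of endothelial cells were low throughout, with sums of 4.81 to 21.6 CPM over 6 genes. The mRNA of the targeted gene, Rps6, averaged 317 to 441 CPM over the 8 groups, a level that does not check the genotype because the knockin replaces only codons.

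By level, the 2 ferritin mRNAs stood far above the others. In Total libraries of the Acb of wt mice, Fth1, the ferritin heavy chain with the ferroxidase activity, averaged 1169 ± 178 CPM per kilobase (SD, n = 3) and Ftl1, the light chain, averaged 525 ± 52.2 CPM per kilobase. Ireb2 followed at 13.1 ± 1.73, Tfrc at 9.47 ± 2.72 and Slc11a2 at 8.44 ± 1.19 CPM per kilobase, then Aco1 at 6.16 ± 0.650 and Slc40a1 at 1.41 ± 0.705 CPM per kilobase. The spreads of Tfrc and Slc11a2 overlapped, whereas each of the other neighbours in this order was separated by more than the sum of its SDs except Ireb2 from Tfrc. The level of Ftl1 is uncertain, because 78.9% of its 50-base windows occur unchanged in transcripts of 15 other genes, most of them ferritin pseudogenes, and reads that fit several places cannot be assigned to 1 of them. For Fth1 this share was 6.59%, for Slc11a2 0.504% and for the other members 0.

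**Figure D1:**
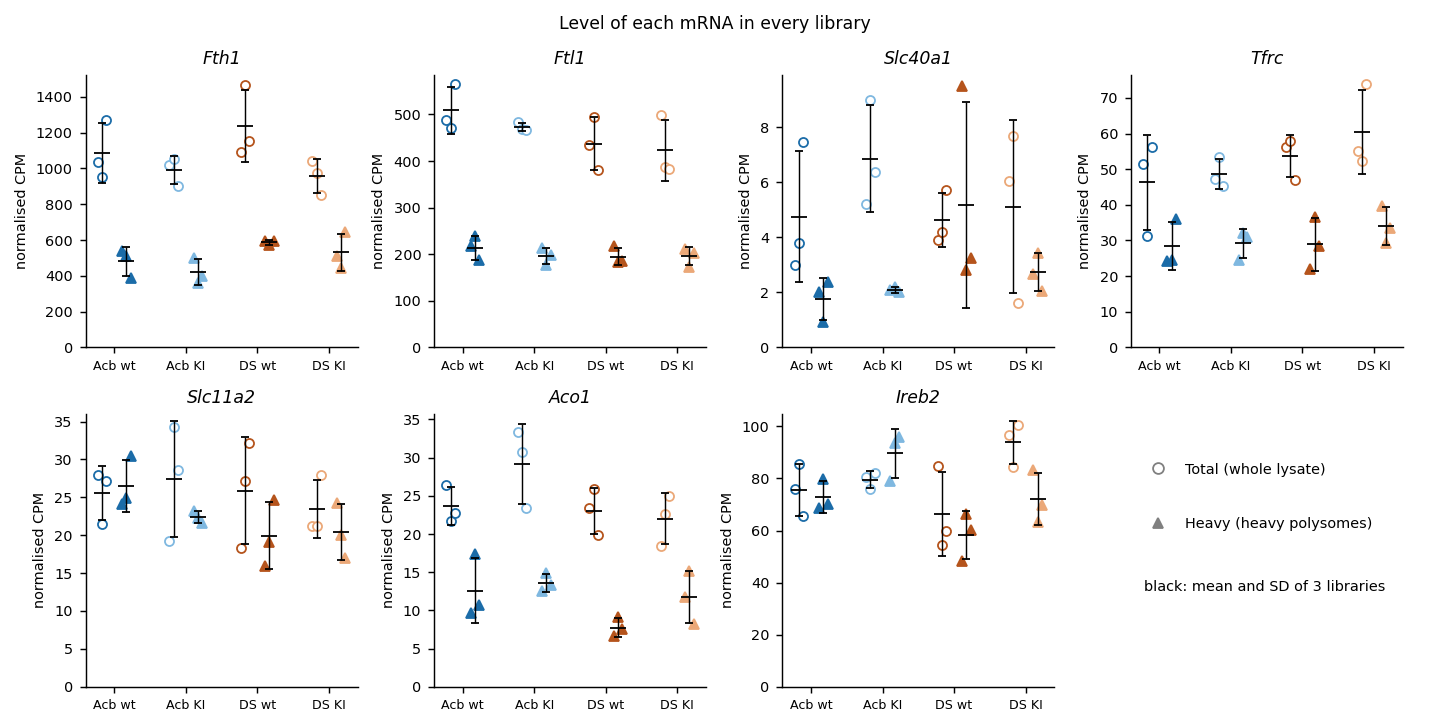
Normalised CPM of the 7 mRNAs in each of the 24 libraries, by region and genotype (KI is rpS6P-/-), with open circles for Total and filled triangles for Heavy. Black marks are means and SDs of 3 libraries, and in Fth1 and Ftl1 each Heavy library lies below each Total library of its group, while in Slc11a2 the groups overlap.

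The main question the fractions allow is which of these mRNAs were under-represented on heavy polysomes. In wt mice, 5 of 7 were significantly lower in Heavy than in Total in the Acb (adjusted p under 0.05, edgeR's quasi-likelihood test with Benjamini-Hochberg adjustment over all genes), where 11.6% of all 16687 genes tested were called lower. The count was 5 of 7 in the Acb of rpS6P-/- mice (9.74% of all genes), 4 of 7 in the DS of wt mice (12% of 16544 genes) and 4 of 7 in the DS of rpS6P-/- mice (12.1%). No member was called higher in Heavy in any of the 4 comparisons, where 11.5%, 9.5%, 12.8% and 13.4% of all genes were called higher. Fth1, Ftl1, Tfrc and Aco1 were lower in all 4 comparisons, Slc40a1 was called lower in both genotypes of the Acb and in neither of the DS, and Slc11a2 and Ireb2 were not called in any. The median log2 fold change of the 7 was -0.96 and -1.11 in the Acb of wt and rpS6P-/- mice and -0.89 and -0.85 in the DS, against medians over all genes of 0.04, 0.04, 0 and 0.06.

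Markers of cell types also moved between the fractions. Of the 8 oligodendrocyte markers, 4 were called higher and 2 lower in Heavy in wt Acb, 3 and 1 in rpS6P-/- Acb, 3 and 1 in wt DS, and 4 and 1 in rpS6P-/- DS. Their summed level was 3641 to 4232 CPM in Total and 4688 to 6002 CPM in Heavy in wt Acb, and 3090 to 3958 and 4753 to 5107 CPM in rpS6P-/- Acb. In the DS it was 2872 to 3515 and 3738 to 4107 CPM in wt, and 2834 to 3227 and 3269 to 5071 CPM in rpS6P-/- mice, so that Heavy lay above Total in each group. Of the 6 astrocyte markers, 0 were called higher and 3 lower in wt Acb, 1 and 2 in rpS6P-/- Acb, and 1 and 3 in both genotypes of the DS. Their summed level was 1806 to 2306 CPM in Total and 1313 to 1968 CPM in Heavy in wt Acb, 1767 to 2409 and 1814 to 2050 CPM in rpS6P-/- Acb, 1281 to 1335 and 796 to 1090 CPM in wt DS, and 1410 to 1677 and 747 to 1474 CPM in rpS6P-/- DS. Nor was a rise in Heavy particular to oligodendrocytes. Of the 9 medium spiny neuron markers, 4 were called higher and 1 lower in both genotypes of the Acb. In the DS these counts were 4 and 2 in wt and 5 and 2 in rpS6P-/- mice. Their summed level in wt Acb was 4030 to 4331 CPM in Total and 5510 to 6681 CPM in Heavy. Of the 6 microglia markers, 2 were called higher in each group, and 1 lower in wt Acb and wt DS. Their sums in wt Acb were 206 to 258 and 253 to 342 CPM. The part of any of these cell types in the values of the 7 mRNAs was not tested.

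Fth1 was at 1036, 951 and 1270 CPM in Total and at 539, 511 and 391 CPM in Heavy in the Acb of wt mice. In rpS6P-/- mice the Acb libraries held 1017, 1052 and 902 CPM in Total and 499, 359 and 400 CPM in Heavy. Every Heavy library thus lay under every Total library in both genotypes. DS lysates of wt mice had 1090, 1468 and 1151 CPM of Fth1, and the Heavy fractions 597, 570 and 595 CPM. DS lysates of rpS6P-/- mice had 1044, 976 and 854 CPM, and the Heavy fractions 508, 442 and 644 CPM. The groups did not overlap in the DS either, and the 3 Heavy libraries of wt DS were the closest to each other of all groups. How many of all genes lacked overlap was not counted. Overlap, here and for the mRNAs below, therefore only describes the values of each mRNA. The log2 fold change of Fth1, Heavy against Total, was -1.23 ± 0.15 (SE, adjusted p = 1.72e-07) in wt Acb and -1.25 ± 0.15 (adjusted p = 1.08e-07) in rpS6P-/- Acb. It was -1.07 ± 0.14 (adjusted p = 1.65e-08) in wt DS and -0.85 ± 0.14 (adjusted p = 2.38e-06) in rpS6P-/- DS. The relative level of Fth1 mRNA on heavy polysomes was therefore 42.8% of its level in the lysate in wt Acb.

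Ftl1 followed the same course. In wt Acb its Total libraries held 489, 471 and 566 CPM and its Heavy libraries 217, 238 and 187 CPM. The Acb of rpS6P-/- mice gave 484, 470 and 467 CPM in Total and 213, 177 and 199 CPM in Heavy. Neither genotype showed any overlap between Heavy and Total. For wt DS the values were 435, 495 and 381 CPM in Total and 217, 183 and 186 CPM in Heavy. For rpS6P-/- DS they were 499, 388 and 382 CPM in Total and 212, 174 and 202 CPM in Heavy. Ftl1 in Heavy was again below Total without overlap, and its Heavy level differed little among the 4 groups, with means of 195 to 214 CPM. Its log2 fold changes were -1.30 ± 0.14 (SE, adjusted p = 1.74e-08) in wt Acb and -1.28 ± 0.14 (adjusted p = 2.06e-08) in rpS6P-/- Acb. The DS gave -1.16 ± 0.14 (adjusted p = 5.69e-09) in wt and -1.11 ± 0.14 (adjusted p = 1.89e-08) in rpS6P-/- mice.

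The third mRNA with the element in its 5′ UTR, Slc40a1, encodes ferroportin, the iron exporter, and was rare, with 18 to 114 reads per library. In wt Acb it stood at 3.0, 3.8 and 7.46 CPM in Total and at 2.02, 0.909 and 2.37 CPM in Heavy. In rpS6P-/- Acb the values were 5.20, 8.99 and 6.39 CPM in Total and 2.08, 2.19 and 2.0 CPM in Heavy. Heavy and Total did not overlap in either genotype of the Acb. In wt DS it stood at 3.91, 4.2 and 5.73 CPM in Total and at 9.49, 2.80 and 3.25 CPM in Heavy. In rpS6P-/- DS it stood at 6.05, 7.69 and 1.62 CPM in Total and at 2.67, 3.45 and 2.07 CPM in Heavy. The groups overlapped in both genotypes of the DS, where Heavy replicate 1 of wt mice was the highest of all 24 libraries and Total replicate 3 of rpS6P-/- mice was low. The log2 fold change was -1.45 ± 0.53 (SE, adjusted p = 0.0407) in wt Acb and -1.72 ± 0.53 (adjusted p = 0.0170) in rpS6P-/- Acb, against 0.15 ± 0.54 (adjusted p = 0.894) in wt DS and -0.90 ± 0.54 (adjusted p = 0.240) in rpS6P-/- DS. Both calls in the Acb rested on few reads. The call in wt mice was lost without any of 5 single libraries, namely wt Total replicate 3 (log2 fold change -0.98, adjusted p = 0.250), wt Heavy replicate 1 (-1.56, 0.0765), replicate 2 (-1.15, 0.165) or replicate 3 (-1.71, 0.0521), or rpS6P-/- Heavy replicate 2 (-1.45, 0.0505). It was also lost with a replicate block (-1.46, adjusted p = 0.0524), with a trend on coding length removed (-1.46, 0.0523), with all 24 libraries in one fit (-1.40, 0.0635) and with only the 6 libraries compared (-1.46, 0.0624), fold changes close to the main one. The call in rpS6P-/- mice was lost without Total replicate 2 (log2 fold change -1.48, adjusted p = 0.0730) or without Heavy replicate 1 (-1.70, 0.0566), 2 (-1.75, 0.0609) or 3 (-1.70, 0.0519), the last 3 with hardly any change of the fold. Without Heavy replicate 1 of wt DS the fold change there turned to -0.62 (adjusted p = 0.550). In that library the summed endothelial markers were at 13.8 CPM, against 7.92 and 8.75 CPM in the other Heavy libraries of wt DS. In Heavy replicate 2 of rpS6P-/- DS they were at 13.1 CPM, where Slc40a1 was at 3.45 CPM. The highest sum of all libraries, 21.6 CPM, was in Total replicate 3 of rpS6P-/- Acb, where Slc40a1 was at 6.39 CPM. The part of endothelial cells in the Slc40a1 values was not tested.

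Tfrc, the receptor that takes up transferrin-bound iron, holds its elements in the 3′ UTR. Its levels in wt Acb were 51.4, 31.2 and 56.3 CPM in Total and 24.3, 24.6 and 36.2 CPM in Heavy. For rpS6P-/- Acb they were 47.4, 53.3 and 45.2 CPM in Total and 24.5, 32.1 and 30.9 CPM in Heavy. The lowest Total library of wt Acb lay within the Heavy range, and the groups were apart in rpS6P-/- Acb. Total libraries of wt DS held 56.3, 57.8 and 47.0 CPM and Heavy libraries 21.9, 36.7 and 28.4 CPM. Total libraries of rpS6P-/- DS held 55.0, 52.2 and 73.9 CPM and Heavy libraries 39.8, 29.2 and 33.5 CPM. Both genotypes of the DS showed Heavy below Total without overlap. Tfrc fell by 0.76 ± 0.21 on the log2 scale (SE, adjusted p = 0.00636) in wt Acb and by 0.74 ± 0.21 (adjusted p = 0.00952) in rpS6P-/- Acb in Heavy against Total. In the DS the log2 fold change was -0.89 ± 0.19 (adjusted p = 0.000324) in wt and -0.82 ± 0.19 (adjusted p = 0.000730) in rpS6P-/- mice. The call in wt Acb was lost without its Total replicate 3 (-0.60, adjusted p = 0.0612), and that in rpS6P-/- Acb without its Heavy replicate 1 (-0.62, adjusted p = 0.0635).

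Slc11a2 encodes the divalent metal transporter DMT1, and some of its mRNA isoforms carry the 3′ element shown above. Its wt Acb levels were 28.0, 21.4 and 27.2 CPM in Total and 24.1, 24.9 and 30.5 CPM in Heavy. In rpS6P-/- Acb it was counted at 19.2, 34.3 and 28.6 CPM in Total and 23.2, 22.3 and 21.7 CPM in Heavy. The fractions overlapped in both genotypes. In wt DS it was counted at 18.3, 27.1 and 32.2 CPM in Total and 16.0, 19.1 and 24.7 CPM in Heavy. Its rpS6P-/- DS levels were 21.3, 21.2 and 27.9 CPM in Total and 24.2, 20.01 and 16.9 CPM in Heavy. The fractions overlapped there as well, and the log2 fold changes were 0.00 ± 0.22 and -0.30 ± 0.22 (SE, adjusted p = 0.997 and 0.394) in the Acb of wt and rpS6P-/- mice and -0.37 ± 0.24 and -0.20 ± 0.24 (adjusted p = 0.292 and 0.609) in the DS. The counts are summed over isoforms with and without the element, so a difference between isoforms was not detectable.

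The 2 mRNAs of the regulators themselves hold no element of this form. Aco1, encoding IRP1, was at 26.4, 21.7 and 22.7 CPM in Total and at 9.60, 17.4 and 10.8 CPM in Heavy in wt Acb. It was at 33.4, 30.8 and 23.4 CPM in Total and at 12.5, 14.9 and 13.3 CPM in Heavy in rpS6P-/- Acb. All Heavy values lay below all Total values in both. Aco1 had 23.4, 25.9 and 19.8 CPM in Total and 6.66, 9.08 and 7.52 CPM in Heavy in wt DS. It had 18.4, 22.7 and 25.0 CPM in Total and 11.8, 15.1 and 8.27 CPM in Heavy in rpS6P-/- DS. No Heavy library reached a Total library in either genotype of the DS. Its log2 fold change was -0.96 ± 0.25 (SE, adjusted p = 0.00319) in wt Acb, -1.11 ± 0.25 (adjusted p = 0.000993) in rpS6P-/- Acb, -1.57 ± 0.27 (adjusted p = 9.73e-06) in wt DS and -0.91 ± 0.27 (adjusted p = 0.00737) in rpS6P-/- DS. The last call was lost without Heavy replicate 3 of rpS6P-/- DS (-0.71, adjusted p = 0.0765) and once a trend on coding length was taken out of each library (-0.54, adjusted p = 0.170).

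Ireb2, encoding IRP2, was at 75.9, 85.5 and 65.6 CPM in Total and at 68.5, 79.7 and 70.4 CPM in Heavy in wt Acb. The rpS6P-/- Acb had 80.7, 75.9 and 82.2 CPM in Total and 79.0, 93.8 and 96.1 CPM in Heavy. Heavy and Total of Ireb2 overlapped in both genotypes, although Heavy replicates 2 and 3 of rpS6P-/- mice lay above every Total library of that group. The wt DS had 84.6, 54.5 and 59.7 CPM in Total and 48.3, 66.5 and 60.3 CPM in Heavy. The rpS6P-/- DS had 96.7, 84.6 and 100 CPM in Total and 83.1, 63.5 and 69.8 CPM in Heavy, and only in this group did Heavy lie below Total without overlap. The log2 fold changes were -0.11 ± 0.16 and 0.16 ± 0.16 (SE, adjusted p = 0.707 and 0.540) in wt and rpS6P-/- Acb and -0.18 ± 0.17 and -0.38 ± 0.17 (adjusted p = 0.489 and 0.0949) in wt and rpS6P-/- DS. In rpS6P-/- DS the value turned to 0.04 with the trend on coding length removed (adjusted p = 0.925), alone and with a replicate block (adjusted p = 0.946). It passed the test without wt Heavy replicate 1 (-0.42, adjusted p = 0.0459), without rpS6P-/- Heavy replicate 1 (-0.50, adjusted p = 0.0429) and with only the 6 libraries compared (-0.42, adjusted p = 0.0329).

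**Figure D2:**
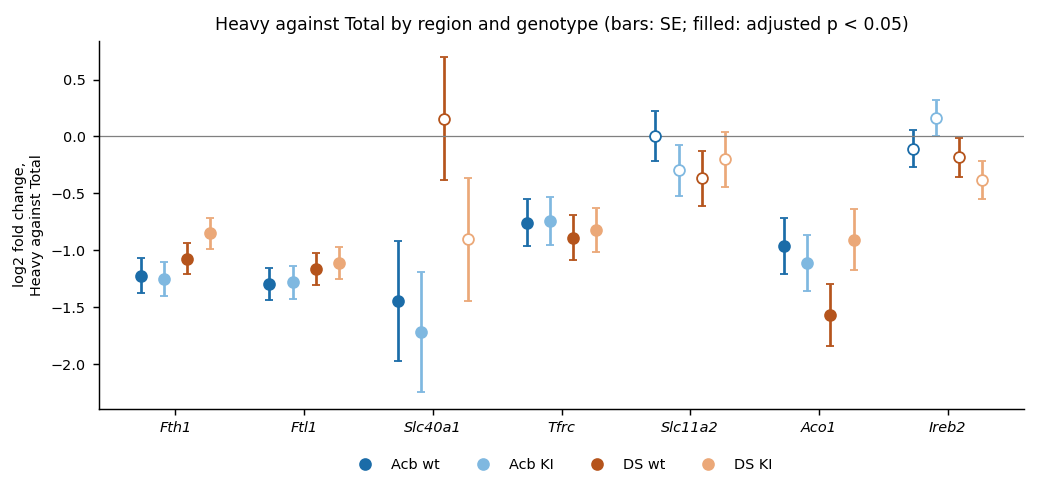
Log2 fold change of Heavy against Total for the 7 mRNAs in the 4 combinations of region and genotype (KI is rpS6P-/-), with bars for the SE and filled points for an adjusted p under 0.05. Fth1, Ftl1, Tfrc and Aco1 lie below 0 in all 4, Slc40a1 has the widest bars, and the points of Slc11a2 and Ireb2 are all open.

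Heavy against Total varied with coding length, so the ferritins were also set beside other short mRNAs. Over all genes with a known coding length, the log2 fold change of Heavy against Total fell with coding length, with a Spearman's rho across genes of -0.45 in wt Acb, -0.24 in rpS6P-/- Acb, -0.47 in wt DS and -0.53 in rpS6P-/- DS. Genes are not independent replicates, the values are a description, and the cause of this trend was not tested. Fth1 and Ftl1 have coding sequences of 546 and 549 bases, against a median of 1398 bases over the genes tested. A group of 1401 genes with a coding length under 600 bases and a mean of 50 reads or more, a limit chosen after the values were seen, had a median log2 fold change of 0.52 in wt Acb, -0.04 in rpS6P-/- Acb, 0.59 in wt DS and 0.67 in rpS6P-/- DS. The ferritin mRNAs thus stood on the other side of 0 from the median short mRNA in 3 of the 4 comparisons. In wt Acb, 29 of these short genes had a lower value than Fth1 and 25 a lower value than Ftl1, and in wt DS 25 and 20 did. In rpS6P-/- Acb the corresponding numbers were 106 and 97, and in rpS6P-/- DS 11 and 7. When the trend on coding length was taken out of each library, Fth1 was at -1.67 ± 0.15 in wt Acb, -1.42 ± 0.15 in rpS6P-/- Acb, -1.53 ± 0.13 in wt DS and -1.41 ± 0.13 in rpS6P-/- DS (log2 fold change ± SE, largest adjusted p = 5.25e-10). Ftl1 was at -1.74, -1.44, -1.62 and -1.65 in the same order. Tfrc, with 2289 bases, was then at -0.60, -0.76, -0.61 and -0.55 and remained called in all 4, and Ireb2, with 2889 bases, was at 0.18, 0.27, 0.23 and 0.04, none of them called.

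**Figure D3:**
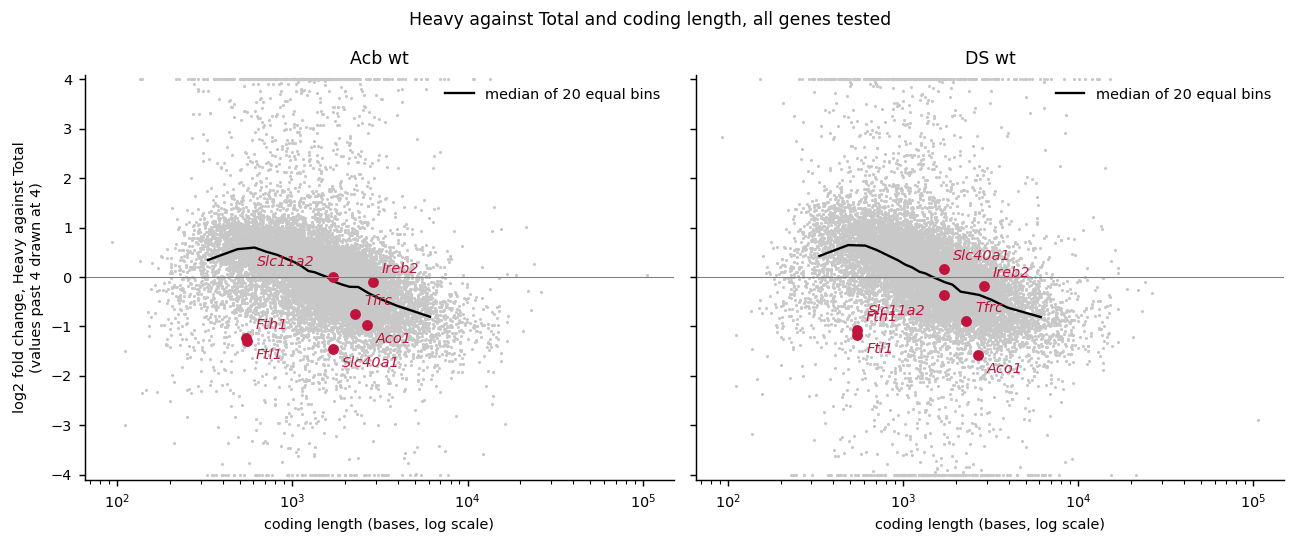
Log2 fold change of Heavy against Total in wt mice against coding length in bases (log scale). Grey points are the genes tested that have a known coding length, the 7 mRNAs are in red and the line is the median of 20 equal bins. Fth1 and Ftl1, at 546 and 549 bases, lie below the line, which is above 0 at that length, while Ireb2 lies above it.

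Whether phosphorylation of rpS6 changed these values was asked by the interaction of genotype and fraction. It was not detectable for any member. In the Acb the interaction of the 7 mRNAs ranged from -0.30 to 0.27 on the log2 scale with SEs of 0.20 to 0.73 (smallest adjusted p = 0.676, edgeR), and in the DS from -1.06 to 0.66 with SEs of 0.19 to 0.76 (smallest adjusted p above 0.99). Over all genes, edgeR called 0 of 16687 in the Acb and 0 of 16544 in the DS (0% in both), with 1992 and 811 genes at an unadjusted p under 0.05, and DESeq2 called 0 in both. With a replicate block, edgeR called 106 genes in the Acb and 6 in the DS, and 0 of the 7 mRNAs in either. With SEs of this size, a change of the heavy polysomal share by the SE of the ferritins, about 0.2 on the log2 scale, could not have been told from 0.

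Between genotypes within 1 kind of RNA, 0 of the 7 mRNAs passed the adjusted threshold in any of the 4 comparisons, where 0% of 16227 genes were called in Heavy libraries of the Acb, 0.0065% of 15393 in Total libraries of the Acb, 0.044% of 15896 in Heavy libraries of the DS and 0.122% of 15601 in Total libraries of the DS. In the Heavy libraries of the Acb, 3518 genes had an unadjusted p under 0.05 by edgeR and DESeq2 called 1090 genes, which held 0 of the 7. In bulk tissue, fewer cells of a type and less RNA per cell cannot be told apart. The Total libraries of the DS came closest. There Fth1 was at 1090, 1468 and 1151 CPM in wt and at 1044, 976 and 854 CPM in rpS6P-/- mice, without overlap. Its log2 fold change, rpS6P-/- against wt, was -0.39 ± 0.09 (SE, adjusted p = 0.0568 by edgeR). The adjusted p was under the threshold by DESeq2 (0.0283), with no filter beyond 1 read (0.00601) and without wt Total replicate 1 (0.0125) or 3 (0.0188). It was also under it with a replicate block (0.00376), which here matched wt and rpS6P-/- pools by replicate number, though no label pairs them. It was highest, 0.806, with all 24 libraries in one fit. Leaving out single libraries moved the log2 fold change between -0.48 and -0.24, and the value nearest to 0 was that without wt Total replicate 2, the highest wt library (-0.24, adjusted p = 0.601). The summed level of the 8 oligodendrocyte markers in these libraries was 2872 to 3515 CPM in wt and 2834 to 3227 CPM in rpS6P-/- mice, and that of the 6 astrocyte markers was 1281 to 1335 and 1410 to 1677 CPM. The part of either in the Fth1 value was not tested.

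Ireb2 in the same libraries was at 84.6, 54.5 and 59.7 CPM in wt and at 96.7, 84.6 and 100 CPM in rpS6P-/- mice, where the highest wt and the lowest rpS6P-/- library met. Its log2 fold change was 0.48 ± 0.14 (SE, adjusted p = 0.171), and without wt Total replicate 1 it was 0.69 (adjusted p = 0.0225). In Heavy libraries of the Acb, Ireb2 was at 68.5, 79.7 and 70.4 CPM in wt and at 79.0, 93.8 and 96.1 CPM in rpS6P-/- mice. This log2 fold change of 0.34 ± 0.16 (SE, adjusted p = 0.229) did not pass the adjusted threshold. With the trend on coding length removed, Ireb2 was at 0.17 there (adjusted p = 0.621) and at 0.42 in Total libraries of the DS (adjusted p = 0.330). The other members, and these genes in the other comparisons, had an unadjusted p of 0.05 or more. Over the 7 mRNAs the log2 fold change ranged from -0.21 to 0.34 in Heavy and from -0.14 to 0.53 in Total libraries of the Acb, and from -0.90 to 0.61 in Heavy and from -0.39 to 0.48 in Total libraries of the DS.

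**Figure D4:**
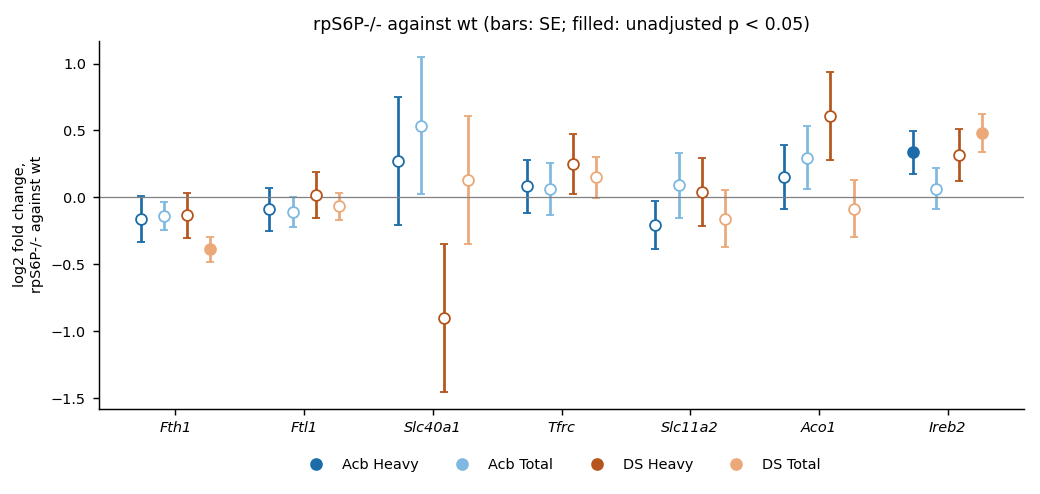
Log2 fold change of rpS6P-/- against wt for the 7 mRNAs in Heavy and Total libraries of the Acb and the DS, with bars for the SE and filled points for an unadjusted p under 0.05. The filled points are Fth1 in Total libraries of the DS and Ireb2 in Heavy libraries of the Acb and Total libraries of the DS, and none had an adjusted p under 0.05.

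Between regions, no difference in the Total level of the 7 mRNAs passed the test. Averaged over genotypes, the log2 fold change of Acb against DS ranged from -0.26 to 0.23, with 0 of 7 called (smallest adjusted p = 0.192), where 17.4% of 17365 genes were called. Markers called higher in the Acb were 6 of 6 of microglia, 4 of 8 of oligodendrocytes, 3 of 6 of astrocytes and 1 of 6 of endothelial cells, with 0 lower. Of the 9 medium spiny neuron markers 2 were higher and 5 lower, and all 5 cortical markers were lower. The part of these cell types in the values of the 7 mRNAs was not tested. The interaction of region and fraction was called in 0 of 7 and in 2.15% of all genes. Slc40a1 had the largest value, -1.18 ± 0.55 (SE, adjusted p = 0.275), lower on heavy polysomes of the Acb than of the DS relative to Total, and Ireb2 had 0.34 ± 0.16 (adjusted p = 0.295). With the trend on coding length removed, Slc40a1 was at -1.40 (adjusted p = 0.222) and Ireb2 at 0.09 (adjusted p = 0.929). For Slc40a1, a call in the Acb and none in the DS is therefore not a difference between regions that passed the adjusted test.

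Across the 24 libraries, log2 CPM of Fth1 and Ftl1 had a Pearson's r of 0.93, and Aco1 had 0.84 with Ftl1, whereas Ireb2 had -0.09 with Fth1. The libraries share 2 kinds of RNA and 2 regions, so these values describe which genes follow the same groups. Among 11978 other genes with a mean of 50 reads or more, the closest to Fth1 were Bc1 (r = 0.97), Pkig (0.96) and Cenpb (0.96), and the closest to Ftl1 were Gas5 (0.96), Eef2 (0.96) and Nrsn1 (0.96). Bc1 is a non-coding RNA of neurons, Gas5 a non-coding host of small nucleolar RNAs and Eef2 the translation elongation factor 2. Tfrc was closest to Nav1 (0.91), Myh10 (0.91) and Ubr3 (0.90), and Aco1 to Aplp2 (0.94), Akap11 (0.94) and Gfpt1 (0.93). Ireb2 was closest to St13 (0.82), Zbtb33 (0.82) and Nlgn3 (0.81), Slc40a1 to Brd2 (0.76), Xpc (0.74) and Afap1 (0.71), and Slc11a2 to Greb1l (0.71), Usp6nl (0.70) and Card10 (0.68).

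Other mRNAs of iron handling were taken from 5 lists of 56 genes, of which 51 passed the filter in each of the Heavy against Total comparisons. Of these, 7 were higher and 8 lower in Heavy in wt Acb, 3 and 9 in rpS6P-/- Acb, 7 and 7 in wt DS, and 9 and 10 in rpS6P-/- DS. Over all genes the shares called higher and lower were 11.5% and 11.6% in wt Acb, 9.5% and 9.74% in rpS6P-/- Acb, 12.8% and 12% in wt DS and 13.4% and 12.1% in rpS6P-/- DS, and the counts of each list below are to be read against these shares. Nothing particular to iron genes is read from counts near them. None of the lists had a gene called for the interaction of genotype and fraction in either region.

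Among other mRNAs described as holding an iron-responsive element or a similar hairpin, 1 was higher and 2 lower of 6 tested in wt Acb, 0 and 2 of 6 in rpS6P-/- Acb, and 1 and 2 of 7 in both genotypes of the DS. The median log2 fold change of the list was -0.42, -0.03, -0.63 and -0.70 in wt Acb, rpS6P-/- Acb, wt DS and rpS6P-/- DS. The DS medians include Hao1, which was not tested in the Acb, so the medians of the 2 regions cover different genes. Hao1 had a mean of 1.46 reads and was at -3.52 ± 2.83 (SE) in wt DS and -5.27 ± 2.86 in rpS6P-/- DS. It was named after its values were seen. The 2 lower were the same in the 4 comparisons. Epas1, the hypoxia-inducible factor HIF-2α, was at -1.29, -0.85, -0.84 and -0.99, and App, the amyloid precursor protein, at -0.80, -0.49, -0.63 and -0.74 (largest adjusted p of both genes = 0.0172). The higher one was Pfn2, the actin-binding profilin 2, at 0.74, 0.22, 0.72 and 0.73, which was not called in rpS6P-/- Acb (adjusted p = 0.353) and was named after its values were seen. The lower count became 1 without Total replicate 1, Heavy replicate 1 or Heavy replicate 2 of rpS6P-/- Acb and without Total replicate 3 of wt DS. In wt DS the lower count ranged from 1 to 3 with single libraries left out. With the trend on coding length removed it became 0 in wt DS, and the higher count became 1 in rpS6P-/- Acb.

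For iron uptake and reduction, 0 genes were higher and 1 lower in each comparison, of 12 tested in the Acb and 11 in the DS. The lower one was Slc25a37, mitoferrin 1, which carries iron into mitochondria, at -1.05, -0.79, -0.77 and -0.70 in the same order (largest adjusted p = 0.0197). Its call was lost in rpS6P-/- Acb without Total replicate 1 or 3 or Heavy replicate 1 or 3, and in the DS without Total replicate 1 or Heavy replicate 2 of the genotype compared. The higher count became 1 without Total replicate 2 of wt Acb, and in rpS6P-/- Acb without Total replicate 1 and with a replicate block. Trf, the mRNA of transferrin, which oligodendrocytes make in the brain, was at -0.14, 0.27, -0.11 and 0.13 (smallest adjusted p = 0.275). Of 5 tested genes of iron export and its control, 1 was called, Heph, the ferroxidase hephaestin, in rpS6P-/- DS alone (-3.02, adjusted p = 0.0221, with a mean of 39.1 reads), a gene named after its value was seen. That call was lost in 5 of 21 alternatives, namely with the length trend removed, alone and with a replicate block, and without Total replicate 2, Heavy replicate 2 or Heavy replicate 3 of that group. Cp, the ferroxidase ceruloplasmin, was at -0.31, -0.48, -0.96 and -0.54 (smallest adjusted p = 0.563).

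Of 7 tested genes of IRP control, ferritin turnover and iron chaperones, 1 was higher and 2 lower in wt Acb, wt DS and rpS6P-/- DS, and 2 were higher and 1 lower in rpS6P-/- Acb. With the length trend removed the counts became 0 and 1 in wt Acb, 1 and 2 in rpS6P-/- Acb, 2 and 1 in wt DS, and 1 and 1 in rpS6P-/- DS. In rpS6P-/- Acb the higher count was also 1 without Total replicate 2, and the lower count 2 without Heavy replicate 3. The higher count there ranged from 1 to 3 with single libraries left out. Ncoa4, the receptor that delivers ferritin to the lysosome, was at -1.01, -0.37, -0.73 and -1.12 and was called in all but rpS6P-/- Acb (adjusted p = 0.106). Herc2, a ubiquitin ligase, was at -1.21, -1.41, -0.81 and -0.84 and Hmox2, the constitutive heme oxygenase, at 0.60, 0.67, 0.78 and 0.81, each called in all 4. Fbxl5, the iron sensor that marks IRP2 for degradation, was at 0.28, 0.57, 0.22 and 0.08 and was called in rpS6P-/- Acb (adjusted p = 0.00916). Pcbp1, an iron chaperone of ferritin, was at 0.02, 0.43, 0.16 and 0.10 (smallest adjusted p = 0.0821).

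Of 21 genes of iron-sulfur cluster assembly, the pathway that gives IRP1 its cluster, 5 were higher and 3 lower in wt Acb, 1 and 5 in rpS6P-/- Acb, 5 and 2 in wt DS, and 7 and 4 in rpS6P-/- DS. With the length trend removed the counts became 2 and 6 in wt Acb (2 and 8 with a replicate block) and 1 and 6 in rpS6P-/- Acb. They became 4 and 5 in wt DS (4 and 4 with the block) and 3 and 2 in rpS6P-/- DS. In wt Acb, and without the block in wt DS, more were then lower than higher, whereas more had been higher before. In rpS6P-/- Acb the higher count was 0 without Total replicate 1, Total replicate 2 or Heavy replicate 2, and 4 without Total replicate 3. The lower count there was 2 without Total replicate 3 and 3 without Heavy replicate 2. The higher count was also 3 without Total replicate 2 of wt Acb and without Total replicate 3 of wt DS, and the lower count 2 without Total replicate 1 or Heavy replicate 2 of rpS6P-/- DS. Nfu1, a carrier of assembled clusters, was higher in all 4, at 0.72, 0.53, 0.96 and 1.01 (largest adjusted p = 0.0303). The median of the list was -0.12, -0.17, -0.08 and 0.36.

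**Figure D5:**
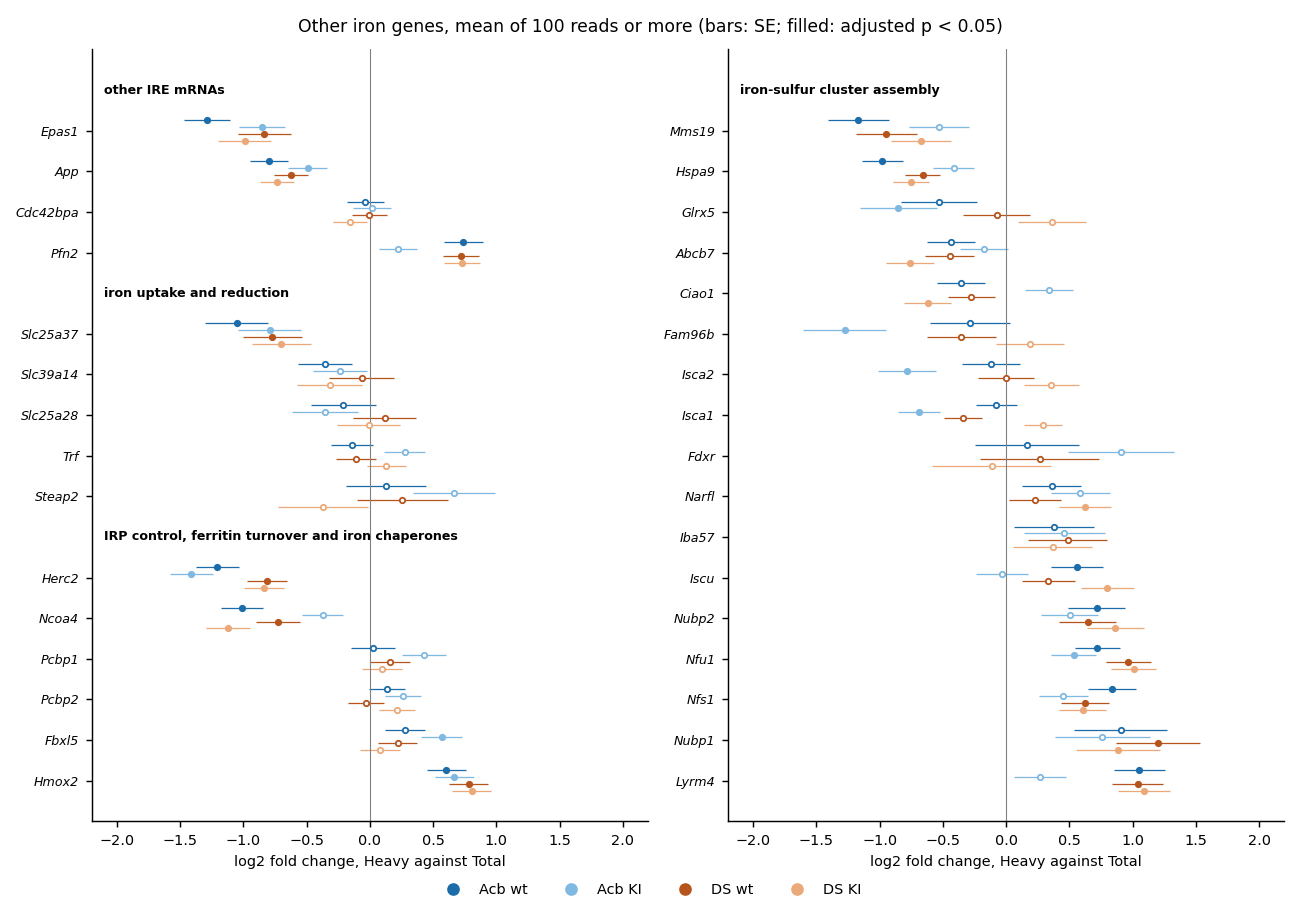
Log2 fold change of Heavy against Total for the 32 list genes with a mean of 100 reads or more, in 4 groups of genes and 4 combinations of region and genotype (KI is rpS6P-/-), with bars for the SE and filled points for an adjusted p under 0.05. Epas1, App, Slc25a37 and Herc2 lie below 0 and Hmox2 and Nfu1 above 0 with filled points in all 4.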

How the data were processed

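The authors deposited raw counts of reads per gene for 24079 genes in 24 libraries. By the study's methods and the submitters' processing notes, 50-base single reads were aligned with TopHat2 2.0.13 and Bowtie2 2.2.3 to mm10, alignments with more than 3 mismatches were discarded, and opposite-strand reads were counted with HTSeq 0.6.1p1 in union mode. Each replicate pooled mice (4 by the methods, with other numbers elsewhere in the study), so p-values measure the spread between pools. The members and the gene lists were chosen with earlier results of these data known, and all members were named with every library's value, while list genes were named by a rule of size among those called in all 4 comparisons of Heavy against Total, besides 5 chosen by name. Some genes of the lists are not reported here.

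Genes with under 15 reads over the libraries of a fit were removed. Counts were scaled by TMM and tested with edgeR 4.0.16 (quasi-likelihood F test, legacy settings) in R 4.3.3, over 12 libraries of a region for Heavy against Total and its interaction with genotype, 6 for genotype within a kind of RNA and 24 for region. p-values were adjusted by Benjamini-Hochberg over all genes tested, with 0.05 as the threshold, and SEs are the log2 fold change divided by the root of F. All 7 members passed the filter in every comparison. Coding lengths and element sites came from GENCODE M21 transcripts by Entrez identifier, with a length for 92.4% to 92.7% of genes tested. The scripts were tested on simulated data.

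Alternatives were DESeq2's size factors, filterByExpr, no filter beyond 1 read, DESeq2 1.42.0, a loess correction for coding length (span 0.5), a replicate block with and without this correction, a single fit of the 24 libraries, a fit of the 6 libraries compared, and leaving out each library. By the methods, each gradient sample also gave its input, so Heavy and Total of 1 number may share a pool. Correlations of their residuals ranged from -0.0376 to 0.0743, with 0 of 12 above 0.1, and 6 of 12 Heavy libraries correlated best with the Total library of their own number. For Heavy against Total and its interactions, the block was a term for each region, genotype and replicate number. For genotype or region within 1 kind of RNA it was the replicate number alone, which no label pairs across genotypes or regions.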

Additional observations from a re-analysis of the deposited data

How the results depend on the processing

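The number of the 7 mRNAs called in Heavy against Total was 5 in wt Acb and in rpS6P-/- Acb and became 3 to 5 when single libraries were left out of either, and that of 4 in rpS6P-/- DS became 3 to 5. In Total libraries of the DS, the number called between genotypes was 0 and became 1 by DESeq2, with no filter beyond 1 read and with the replicate block, and 0 to 2 with single libraries left out. Of 691 alternative values of single genes, 649 kept direction and call, 19 lost and 9 gained the call, and 14 changed sign, and the cause was not tested. The changes of sign were in Slc11a2, Ireb2 and Slc40a1, in comparisons where they were not called. Slc11a2 in wt Acb turned from 0.00 to -0.0196 (DESeq2's size factors and DESeq2's test), to -0.0037 (filterByExpr) and to between -0.109 and 0.0716 with libraries left out. With the length trend removed, alone and with the replicate block, Ireb2 turned to 0.18 and 0.18 in wt Acb, 0.23 and 0.26 in wt DS, and 0.0403 and 0.0354 in rpS6P-/- DS, and with libraries left out it ranged from -0.307 to 0.0321 in wt DS. Slc40a1 in wt DS turned to -0.0511 with the replicate block and ranged from -0.62 to 0.45 with libraries left out.

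The replicate block ended the call of Slc40a1 in wt Acb and made that of Fth1 between genotypes in Total libraries of the DS, and changed no other call of the 7 mRNAs. Between genotypes the block matched pools by replicate number alone, and no label pairs these pools. Over all genes, it raised the count for region by fraction from 374 to 788, and those between genotypes from 0 to 98 (Acb Heavy), 1 to 5 (Acb Total), 7 to 31 (DS Heavy) and 19 to 71 (DS Total). DESeq2 called 1090, 1, 17 and 95 genes there, and 697 for region by fraction. No filter gave 549, 2, 37 and 66 genes, 746 for region by fraction, and 107 and 5 for genotype by fraction. Between genotypes, the length correction gave 4, 2, 13 and 8 genes (with the block, 3, 3 and 4 in the first 3), filterByExpr 0, 0, 1 and 2, a single fit of the 24 libraries 813, 0, 0 and 0, and single libraries left out 0 to 3, 0 to 3, 0 to 29 and 1 to 56. Removing the length trend lowered Heavy against Total from 3848 to 2355 (wt Acb), 4104 to 2599 (wt DS; 2618 with the block) and 4224 to 2083 (rpS6P-/- DS; 2091 with the block), and region by fraction to 210, and with the block gave 13 for genotype by fraction in the Acb. Leaving out single libraries gave 0 to 81 and 0 to 12 genes for genotype by fraction in the Acb and the DS, and 155 to 916 for region by fraction. Slc40a1, with 18 to 114 reads, is the member that depth limits most.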
